A study of Mus musculus with 92 samples.

Results

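Liver RNA of young female mice fed less of all amino acids was compared with that of young females on the Control diet, in 16 of the 92 libraries of the series. The members are every library labelled female, killed at 6 months, on Low Amino Acid (8 libraries) or Control (8 libraries), and each is the liver of a mouse of the HET3 stock. HET3 mice are a genetically heterogeneous cross of inbred strains, so that litter mates differ in genotype. No gene was altered in either group. In both groups the diet began at 9 weeks of age, the animals were fasted for 16 hours before they were killed, and polyadenylated RNA was read with a stranded kit. The study asked how restriction of total amino acids, or of isoleucine alone, acts in mice of both sexes and 2 starting ages. The labels give an age at killing of 6 months, whereas the series text gives 13 weeks on the diet, so the time on the diet is uncertain. The labels do not say whether libraries of a group came from separate litters or cages; p-values measure the spread between these libraries.

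The liver takes up amino acids from the portal blood, oxidises those in excess and turns their nitrogen into urea. When amino acids run short, uncharged transfer RNA activates the kinase GCN2, eIF2 is phosphorylated and the transcription factor ATF4 is translated, while mTORC1, which senses amino acids at the lysosome, is turned down. Livers of protein-restricted rodents are known for secreting the hormone FGF21, and for lower RNA of enzymes that break down amino acids.

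Library totals over the genes that could be used ran from 18.9 to 26.3 M counts on Low Amino Acid and from 14.3 to 26.6 M on Control (M, counts in units of 1000000). The lowest totals were those of Control replicates 5 and 6, at 14.5 and 14.3 M. Spearman correlations between libraries of the same group ran from 0.969 to 0.991. Hepatocyte markers summed to between 127123 and 165235 CPM (counts per 1000000 of the scaled library total) on Low Amino Acid and between 120871 and 221017 CPM on Control. Kdm5d, the only gene of the Y chromosome among the lines used, was at 0.524 CPM or less in all 16 libraries. In bulk tissue, fewer cells of a type and less RNA per cell cannot be told apart.

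Which genes did restriction of all amino acids change in young females? Of 11873 genes tested with edgeR's quasi-likelihood test, 4 rose and 1 fell at a Benjamini-Hochberg adjusted p under 0.05, which is 0.0337% and 0.00842% of the genes (0.0421% in either direction). The 4 that rose encode Cd9 and Cd44, which are membrane proteins of many cell types, Igf2bp2, which binds mRNA, and Ocstamp, a membrane protein of fusing osteoclast precursors and macrophages. The gene that fell, Mmd2, encodes a membrane protein of the progestin and adipoQ receptor family. At an unadjusted p under 0.05 there were 862 genes higher and 874 lower, or 7.26% and 7.36%. Changes were small: the median absolute log2 fold change was 0.120, and 61 genes differed by more than 1 log2 unit.

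**Figure D1:**
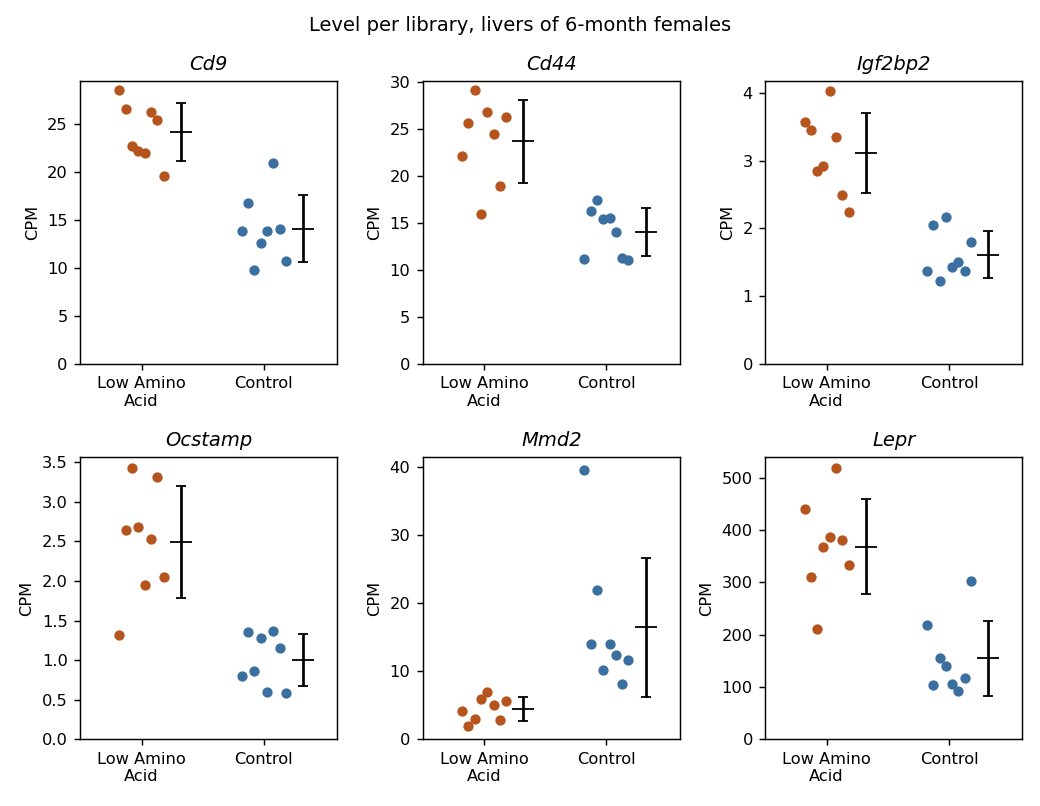
Levels in CPM (vertical axes, linear, from 0) of the 5 genes past the threshold and of Lepr in each library, with Low Amino Acid left and Control right; the black mark and bar are the mean and SD of 8 libraries. Mmd2 and Igf2bp2 have no overlap between the groups, and the 39.7 CPM of Mmd2 in Control replicate 1 stands above all others.

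Gene positions below are those of GENCODE M21 on GRCm38. Cd9 (chromosome 6, 125460266 to 125494791), a tetraspanin that organises adhesion and signalling proteins in the plasma membrane, ran from 19.6 to 28.6 CPM on Low Amino Acid (median 24.1), and from 9.80 to 20.9 CPM on Control (median 13.8). The groups overlap by a single Control library. The means were 24.2 ± 2.996 and 14.1 ± 3.49 CPM (SD, n = 8 each), a log2 fold change of 0.79 (SE 0.129, edgeR adjusted p = 0.0328). An RNA on the opposite strand, Gm26728, overlaps an exon of Cd9.

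Cd44 (chromosome 2, 102811141 to 102901665), the receptor for hyaluronan, ran from 15.9 to 29.2 CPM on Low Amino Acid (median 25.1), and from 11.1 to 17.4 CPM on Control (median 14.7). All 8 libraries on the restricted diet lay above the Control median. The means were 23.7 ± 4.41 and 13.99 ± 2.54 CPM (SD, n = 8 each), and the log2 fold change was 0.76 (SE 0.129, edgeR adjusted p = 0.0328).

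Igf2bp2 (chromosome 16, 22059009 to 22163299), an RNA-binding protein that regulates the stability and translation of its target mRNAs, ran from 2.24 to 4.04 CPM on Low Amino Acid (median 3.14). On Control it ran from 1.22 to 2.17 CPM (median 1.46), so the groups did not overlap. The log2 fold change was 0.94 (SE 0.161, edgeR adjusted p = 0.0328). Ocstamp (chromosome 2, 165393760 to 165400405) ran from 1.31 to 3.43 CPM on Low Amino Acid (median 2.59) and from 0.585 to 1.36 CPM on Control (median 1.01), a log2 fold change of 1.31 (SE 0.226, edgeR adjusted p = 0.0328). The highest Control libraries reach into the range of the restricted diet for Ocstamp.

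Mmd2 (chromosome 5, 142562358 to 142608800) ran from 1.98 to 6.98 CPM on Low Amino Acid (median 4.598) and from 8.13 to 39.7 CPM on Control (median 13.2). The groups did not overlap, and Control replicate 1 was far above the next Control library, at 21.9 CPM. The means were 4.44 ± 1.75 and 16.5 ± 10.2 CPM (SD, n = 8 each), and the log2 fold change was -1.89 (SE 0.313, edgeR adjusted p = 0.0328).

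Of the 5 genes, 4 have an entry among the RefSeq promoters of build GRCm38.p6. The RefSeq starts of Cd9 and Mmd2 lie inside the GENCODE M21 genes, so part of those 2 windows lies within the gene. Whether these bases regulate the genes was not tested. The 150 bases upstream of the RefSeq start are shown, 5′ to 3′ on the gene's own strand, with matches to 5 short motifs in capitals.
Cd9, chr6:125494761-125494910, minus strand: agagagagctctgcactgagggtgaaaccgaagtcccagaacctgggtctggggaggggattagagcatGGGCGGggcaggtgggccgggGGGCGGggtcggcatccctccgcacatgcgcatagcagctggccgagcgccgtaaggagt
Cd44, chr2:102901666-102901815, minus strand: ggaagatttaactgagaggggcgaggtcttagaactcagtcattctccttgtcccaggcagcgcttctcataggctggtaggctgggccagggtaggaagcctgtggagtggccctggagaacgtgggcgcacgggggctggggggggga
Igf2bp2, chr16:22163300-22163449, minus strand: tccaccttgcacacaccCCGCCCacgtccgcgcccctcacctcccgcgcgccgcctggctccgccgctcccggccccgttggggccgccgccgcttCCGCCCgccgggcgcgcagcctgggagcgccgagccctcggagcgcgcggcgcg
Mmd2, chr5:142608753-142608902, minus strand: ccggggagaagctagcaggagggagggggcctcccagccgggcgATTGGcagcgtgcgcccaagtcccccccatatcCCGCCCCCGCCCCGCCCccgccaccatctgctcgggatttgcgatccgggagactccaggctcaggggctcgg
The motifs searched on both strands were the GC box GGGCGG, the CCAAT box CCAAT, the TATA box TATAAA, the E-box CACGTG and the C/EBP-ATF element TGATGNAA. The capitals of Cd9 and Igf2bp2 are GC boxes, and those of Mmd2 are a reversed CCAAT box and a run of 3 reversed GC boxes, of which the last pair share a base. No match lay in the window of Cd44. Among 32851 promoters of the same length 28.6% held a GC box, 24.5% a CCAAT box, 7.57% a TATA box, 4.30% an E-box and 2.23% the C/EBP-ATF element. The windows of Igf2bp2 and Mmd2 are rich in G and C, at 83.3% and 73.3%, with a median of 54% over all promoters.

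The calls rest on a narrow margin. Each of the genes that rose stayed past the threshold in 4 of the 16 fits that leave out 1 library, and Mmd2 in 3 of 16. The fits without Control replicates 2, 4 or 6 held all 5 genes, and those without Low Amino Acid replicates 1, 4 and 8 held 1, 1 and 2 of them. Under the other 10 omissions none of the 5 passed, with adjusted p up to 0.096. Over all 16 omissions their log2 fold changes kept their sign (0.72 to 0.88 for Cd9, -2.01 to -1.57 for Mmd2). Fits on all 47 female libraries, on library totals alone, or on libraries summed by the tag number in their titles called 0 genes, with 978, 1472 and 1314 at an unadjusted p under 0.05, whereas DESeq2 called 58 higher and 68 lower, the 5 genes among them.

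In the authors' deposited table for this comparison 1 gene of 17192 was higher and 1 lower at an adjusted p under 0.05, or 0.00582% each. Lhx6, a LIM homeobox transcription factor, had a log2 fold change of 0.96 and an adjusted p of 0.0344 in the authors' deposited table. In the counts it ran from 3.76 to 7.12 CPM on Low Amino Acid (median 5.76) and from 1.63 to 5.25 CPM on Control (median 2.77), with a log2 fold change of 0.94 (SE 0.194, edgeR adjusted p = 0.0892). Control replicate 6 alone, at 5.25 CPM, gave the overlap with the restricted diet, and without it the edgeR adjusted p was 0.0130. Lhx6 passed in that 1 alone of the 16 fits that leave out 1 library, with edgeR adjusted p up to 0.196. Another gene on the same strand, Gm27953, overlaps an exon of Lhx6, so a stranded kit does not set their reads apart there. For Gm22486, whose counts were not used here, the authors' deposited table gives -1.11 (adjusted p = 0.0275).

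Genes just outside the threshold hold larger fold changes than some inside it. Lepr (chromosome 4, 101717404 to 101815352), the leptin receptor, ran from 210 to 518 CPM on Low Amino Acid (median 374) and from 92.8 to 303 CPM on Control (median 128), a log2 fold change of 1.26 (SE 0.227, edgeR adjusted p = 0.0502). Control replicates 1 and 8, at 218 and 303 CPM, reached the lower end of the restricted diet, and the other 6 Control libraries lay at 156 CPM or less. Without Control replicate 8 the edgeR adjusted p was 0.00511. Lepr passed in 2 of the 16 fits that leave out 1 library, with edgeR adjusted p up to 0.121. With all 47 female libraries the edgeR adjusted p was 0.397. The counts do not separate the long receptor form from the short or soluble ones.

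Among the other genes of lowest p on the higher side, none past the threshold, Slc34a2, a phosphate carrier, stood at a log2 fold change of 1.20, Runx1, a transcription factor of blood and stromal cells, at 0.73, Fam129b at 0.79, Rps6ka1, a kinase downstream of ERK, at 0.61, Filip1l at 0.52 and Sema6d, a semaphorin, at 0.36. Their edgeR adjusted p ran from 0.0723 to 0.0977. On the lower side Bdh2, a cytosolic dehydrogenase of hydroxybutyrate, stood at -1.37, Kbtbd8, an adaptor of a ubiquitin ligase, at -0.83, Dcaf12l1 at -0.76, Lgr4, a receptor for R-spondins in Wnt signalling, at -0.49, and Fggy, a carbohydrate kinase, at -0.46. Zfp180, Srr, the serine racemase, Chuk, a kinase of the NF-kappaB pathway, and Heatr1, a factor of ribosome synthesis, stood between -0.35 and -0.32, with edgeR adjusted p from 0.105 to 0.122. In every one of these genes all 8 libraries on the restricted diet lay on the same side of the Control median. That follows largely from picking the genes by lowest p in the same libraries, so it is no separate support. Genes on the opposite strand overlap exons of Runx1, Fam129b, Rps6ka1, Srr and Heatr1.

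Groups that do not overlap at all, with every Low Amino Acid library above or below every Control library, were found for 6 genes higher (0.0505%) and 7 lower (0.0590%). The higher ones were Igf2bp2, Runx1, Sema6d, Rassf2, Spata33 and Arg2, the mitochondrial arginase, and the lower ones Mmd2, Fggy, C1galt1, Shpk, Ubr2, an E3 ligase of the N-degron pathway, Rnf6 and Fbxo38. Of these, Arg2, Rassf2, Spata33, C1galt1, Shpk, Ubr2, Rnf6 and Fbxo38 were picked out after their values were seen. Arg2 averaged 0.724 ± 0.270 CPM on Low Amino Acid and 0.200 ± 0.118 CPM on Control (SD, n = 8 each), with a log2 fold change of 1.78 (SE 0.353, edgeR adjusted p = 0.0723), and Ubr2 stood at -0.29 (SE 0.0688, edgeR adjusted p = 0.122). At these low levels Arg2 passed the count filter through its Low Amino Acid libraries, where it is high. Its fold change and lack of overlap therefore depend in part on that filter.

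**Figure D2:**
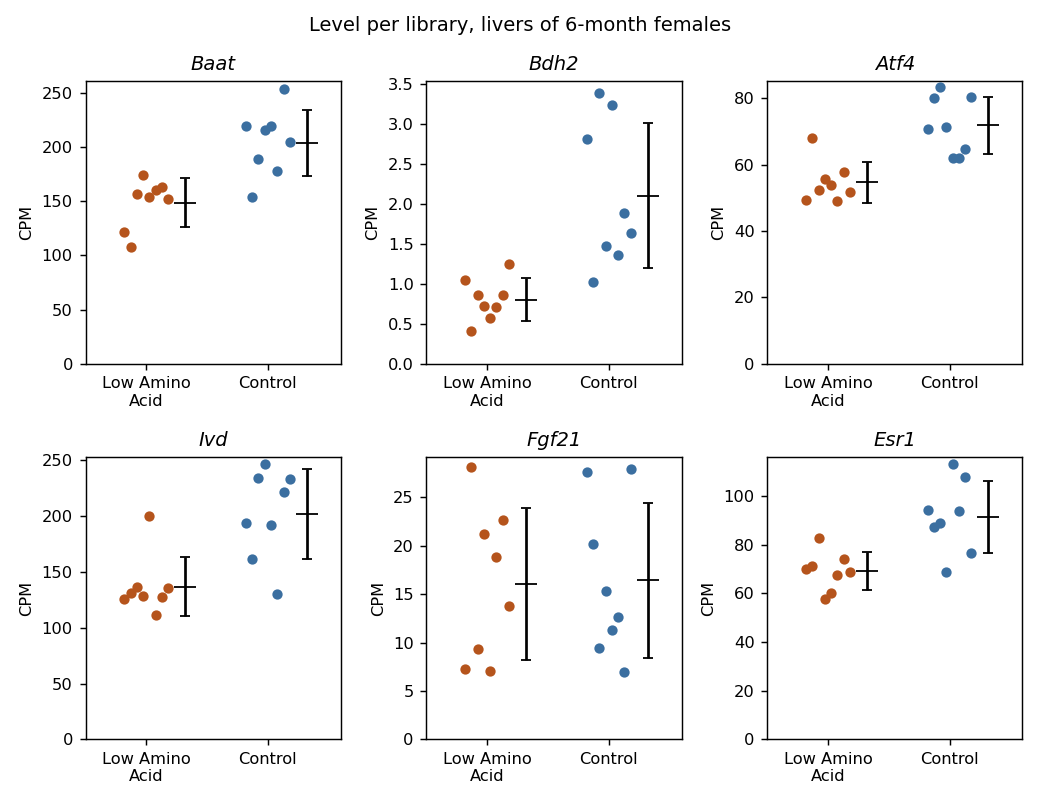
Levels in CPM (vertical axes, linear, from 0) of 6 genes of metabolism and signalling in each library, with Low Amino Acid left and Control right; the black mark and bar are the mean and SD of 8 libraries. Baat, Bdh2, Atf4, Ivd and Esr1 are lower on average on Low Amino Acid, with overlap, and the Fgf21 ranges coincide.

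Was the response to amino acid shortage visible? Fgf21, the hormone that liver secretes on low protein intake, ran from 7.08 to 28.1 CPM on Low Amino Acid (median 16.3) and from 6.97 to 27.97 CPM on Control (median 14.02). The ranges coincide, and the log2 fold change was -0.03 (SE 0.317, edgeR adjusted p = 0.971). Asns, the asparagine synthetase and a target of ATF4, lay under the count filter, with means of 0.404 ± 0.342 CPM on Low Amino Acid and 0.302 ± 0.358 CPM on Control (SD, n = 8 each).

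Atf4 itself ran from 49.0 to 68.0 CPM on Low Amino Acid (median 53.1) and from 61.9 to 83.5 CPM on Control (median 71.2). Low Amino Acid replicate 2 was its highest library there, and the other 7 lay at 57.8 CPM or less, under every Control library. The log2 fold change was -0.39 (SE 0.0834, edgeR adjusted p = 0.0977), and Atf4 passed in DESeq2 (adjusted p = 0.00425) and without Control replicate 6. It passed in that 1 alone of the 16 fits that leave out 1 library, with edgeR adjusted p up to 0.205. With all 47 female libraries the edgeR adjusted p of Atf4 was 0.397. Of 31 tested genes of the integrated stress response, of 36 listed, 0 passed; 3 were higher and 5 lower at an unadjusted p under 0.05, with a median log2 fold change of -0.07. Without Control replicate 2 these were 6 higher and 3 lower, and without Control replicate 4 there were 8 lower. Vldlr, a lipoprotein receptor, stood at -1.06 (SE 0.270, edgeR adjusted p = 0.160). Nupr1, a stress-induced nuclear protein, was at 139 CPM in Control replicate 2, at 1.36 CPM or less in the other Control libraries and between 0.814 and 2.15 CPM on Low Amino Acid. Its log2 fold change was -3.60 with that library and 0.88 without it.

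Enzymes that break down amino acids tended lower. Abundance has to be read beside such lists, because fold changes ran with it across genes (Spearman value of -0.335 over 11873 genes, which are not independent replicates). When genes were divided into 4 bins of equal size by mean level, the most abundant bin held 13.3% lower and 2.70% higher genes at an unadjusted p under 0.05, with a median log2 fold change of -0.06. The least abundant bin had 2.73% lower and 11.9% higher, with a median of 0.14.

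Of 24 tested genes of branched-chain amino acid breakdown, of 25 listed, 0 passed the adjusted threshold, 12 were lower and 0 higher at an unadjusted p under 0.05, and the median log2 fold change was -0.19, with 0.0011 over all genes tested. In this list 83.3% of the members belong to the most abundant bin. Ivd, the isovaleryl-CoA dehydrogenase of leucine breakdown, ran from 111 to 199.6 CPM on Low Amino Acid (median 130) and from 129.8 to 246 CPM on Control (median 207). Low Amino Acid replicate 5 was the highest of its group and the next was at 136 CPM, while Control replicate 6 was the lowest Control. The log2 fold change was -0.55 (SE 0.130, edgeR adjusted p = 0.122). Hibadh, of valine breakdown, Dbt, the transacylase of the branched-chain ketoacid dehydrogenase, and Acadsb, of isoleucine breakdown, stood at -0.27, -0.29 and -0.30. The number lower was 7 without Control replicate 5, Control replicate 7 or Low Amino Acid replicate 2, 6 on library totals alone, and at most 15 with any library left out.

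The wider list of amino acid catabolic enzymes had 10 of 37 tested lower and 1 higher at an unadjusted p under 0.05. There were 17 lower without Control replicate 6 and 6 lower on library totals alone. The median log2 fold change was -0.18, and 94.6% of the members belong to the most abundant bin. Prodh, the proline dehydrogenase, stood at -0.52 (SE 0.133, edgeR adjusted p = 0.160), and Ido2, of tryptophan breakdown, at -0.52. Among 9 genes of the urea cycle and ammonia handling 3 were lower and 0 higher, with Otc, the ornithine transcarbamylase, at -0.34 and Oat, the ornithine aminotransferase, at -0.54. The 3 became 1 without Low Amino Acid replicates 2 or 3 or without Control replicate 8. Of the 9 genes 88.9% belong to the most abundant bin, where 13.3% of genes were lower. Cytosolic aminoacyl-tRNA synthetases, which load amino acids onto transfer RNA, had 6 of 19 tested lower and 0 higher. Of the 19 genes 47.4% belong to the most abundant bin. Aars and Mars, for alanine and methionine, stood at -0.27 (SE 0.0677) and -0.28 (SE 0.0819).

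Amino acid transporters went either way, with 3 of 26 tested higher and 4 lower at an unadjusted p under 0.05. Slc16a10, a carrier of aromatic amino acids, stood at -0.45, Slc6a13, a carrier of GABA and taurine, at -0.32, and Slc43a2, a carrier of large neutral amino acids, at 0.30. The 4 became 2 without Low Amino Acid replicates 1 or 5, and the 3 became 1 without Low Amino Acid replicate 8 or Control replicate 1. In the methionine cycle and one-carbon list 1 of 24 was higher and 3 lower; the 3 became 5 without Low Amino Acid replicate 5 or Control replicate 2 and 1 without Low Amino Acid replicates 1, 2 or 3 or Control replicate 4. Of 34 tested genes of mTORC1 and amino acid sensing 0 had an unadjusted p under 0.05 in either direction; Tfeb, which drives lysosomal genes, was the nearest at 0.24 (SE 0.125, edgeR adjusted p = 0.393).

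**Figure D3:**
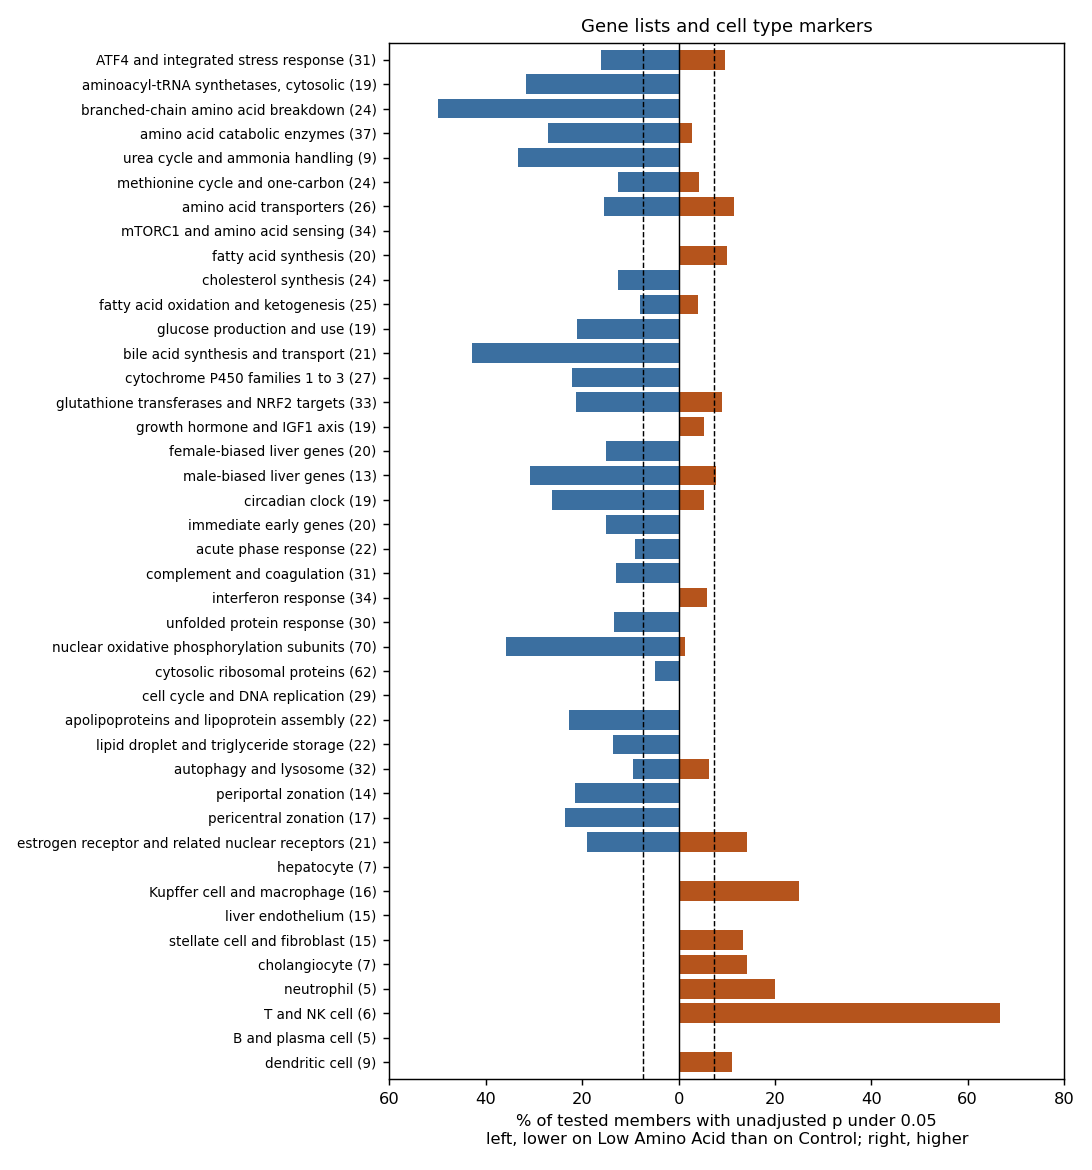
Share of tested members (number in brackets) of each list with an unadjusted p under 0.05 in edgeR's test, in percent; bars to the left are lower and bars to the right higher on Low Amino Acid than on Control, and the dashed lines are the shares over all genes, 7.36% and 7.26%. Branched-chain amino acid breakdown, bile acid genes and oxidative phosphorylation reach furthest left and T and NK cell markers furthest right; none of the members passed the adjusted threshold.

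Lipid lists differed from each other. Of 20 genes of fatty acid synthesis 2 were higher and 0 lower at an unadjusted p under 0.05, and up to 3 were lower with a library left out (Low Amino Acid replicate 5). Srebf1, the transcription factor that drives them, averaged 231 ± 87.5 CPM on Low Amino Acid and 185 ± 62.9 CPM on Control, and Fasn, the fatty acid synthase, 220 ± 78.1 and 278 ± 75.3 CPM (SD, n = 8 each); their log2 fold changes of 0.33 and -0.33 did not pass (edgeR adjusted p = 0.533 and 0.459). Pnpla3, a lipid droplet protein that follows SREBP1 activity, stood at 1.04 (SE 0.292, edgeR adjusted p = 0.172). Of 24 tested genes of cholesterol synthesis 23 had a fold change below 0, with a median log2 fold change of -0.30, lower than that of the bile acid and branched-chain lists, and 3 were lower at an unadjusted p under 0.05. Insig1, which holds the sterol sensor SCAP in the endoplasmic reticulum, ran from 89.2 to 207.7 CPM on Low Amino Acid (median 137) and from 127.7 to 288 CPM on Control (median 228), a log2 fold change of -0.58 (SE 0.1896, edgeR adjusted p = 0.218). The number lower was 8 without Low Amino Acid replicates 2 or 5, 7 without Control replicate 3 and 6 without Control replicate 8.

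Bile acid genes stood lower on average. Of 21 tested genes of bile acid synthesis and transport 9 were lower and 0 higher at an unadjusted p under 0.05, 20 had a fold change below 0, and the median log2 fold change was -0.25. In this list 76.2% of the members belong to the most abundant bin. Baat, which conjugates bile acids to glycine or taurine, ran from 107.4 to 174 CPM on Low Amino Acid (median 155) and from 154 to 253 CPM on Control (median 210), with a log2 fold change of -0.45 (SE 0.106, edgeR adjusted p = 0.122). Cyp27a1, of the acidic synthesis pathway, stood at -0.44 and Cyp2c70, which makes muricholic acids, at -0.66. Cyp7a1, the rate-limiting enzyme of the classical pathway, averaged 301 ± 153 CPM on Low Amino Acid and 304 ± 115 CPM on Control (SD, n = 8 each), a log2 fold change of -0.01 (SE 0.286, edgeR adjusted p = 0.996). In the cytochrome P450 families 1 to 3 there were 6 of 27 tested lower and 0 higher, with Cyp2a5, of lowest p, at -0.59, and among glutathione transferases and NRF2 targets 7 of 33 lower and 3 higher. The most abundant bin, where 13.3% of genes were lower, held 85.2% of the P450 members and 57.6% of the transferases and NRF2 targets. The 7 became 4 without Low Amino Acid replicates 2 or 3, and the 3 became 0 without Low Amino Acid replicate 8 or Control replicates 1, 6 or 8, and 1 without Low Amino Acid replicates 3 or 5 or Control replicates 5 or 7. Members of the Cyp2a, Cyp2c and Gsta families share sequence, so their counts may be divided between copies.

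Glucose metabolism had 4 of 19 tested genes lower and 0 higher at an unadjusted p under 0.05. These included Gbe1, the glycogen branching enzyme, at -0.46 (SE 0.142) and Ppp1r3b, a glycogen-targeting subunit of protein phosphatase 1, at -0.41 (SE 0.157). The 4 are 21.1% of the list, and 68.4% of its members belong to the most abundant bin, where 13.3% of genes were lower. Ppargc1a, a coactivator of fasting and mitochondrial genes, stood at -0.12 (SE 0.144, edgeR adjusted p = 0.728). Nuclear genes of oxidative phosphorylation had 25 of 70 tested lower and 1 higher, with a median log2 fold change of -0.17 and 66 members below 0. Of these members 72.9% belong to the most abundant bin. Sdhd, a subunit of complex II, stood at -0.31 (SE 0.0887) and Ndufa3, of complex I, at -0.31 (SE 0.0912). The number lower was 15 without Control replicate 7, and 16 on library totals alone. Of the 13 mitochondrially encoded proteins, whose counts were not used here, the authors' deposited table has 3 lower (mt-Co2, mt-Atp6 and mt-Nd4l), where 5.27% of its genes are lower and 4.13% higher at an unadjusted p under 0.05.

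Among nuclear receptors and related receptors, 3 of 21 tested were higher and 4 lower at an unadjusted p under 0.05. Esr1, the estrogen receptor, ran from 57.7 to 82.7 CPM on Low Amino Acid (median 69.4) and from 68.6 to 113.3 CPM on Control (median 91.2). All 8 libraries on the restricted diet lay under the Control median; the log2 fold change was -0.40 (SE 0.0969, edgeR adjusted p = 0.140). Thrb, a thyroid hormone receptor, stood at -0.22 (SE 0.0714). Igf1, the growth factor under growth hormone control, averaged 981 ± 197 CPM on Low Amino Acid and 979 ± 285 CPM on Control (SD, n = 8 each), a log2 fold change of 0.01 (SE 0.157, edgeR adjusted p = 0.985). Of 19 genes of the growth hormone and IGF1 axis 1 was higher and 0 lower at an unadjusted p under 0.05. Of 20 female-biased liver genes 3 were lower and 0 higher, among them Sult1e1, the estrogen sulfotransferase, at -2.53 (SE 0.751, edgeR adjusted p = 0.188); 13 tested male-biased genes had 4 lower and 1 higher. The 3 became 1 without Control replicate 5, and the 4 became 2 without Low Amino Acid replicates 2 or 8 or Control replicate 3. The 3 are 15% of the female-biased list, of which 80% belongs to the most abundant bin, where 13.3% of genes were lower. For the male-biased list the share lower was 30.8%, with 46.2% of its members in that bin. In the circadian list 5 of 19 were lower (3 without Control replicate 1) and 1 higher, with Cry1, a repressor of the clock, at -0.54 (SE 0.175).

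Among secreted proteins and stress genes, the share lower ran from 9.09% for the acute phase to 22.7% for apolipoproteins. Acute phase genes had 2 of 22 lower, complement and coagulation genes 4 of 31 lower, apolipoproteins 5 of 22 lower, and the unfolded protein response 4 of 30 lower, each with 0 higher, at an unadjusted p under 0.05. Over all genes 7.36% were lower, and in the most abundant bin 13.3%. That bin held 77.3% of the acute phase members, 96.8% for complement and coagulation, 90.9% for apolipoproteins and 76.7% for the unfolded protein response. Except for apolipoproteins, the shares lower were thus near or under that of the bin. With a library left out, the number lower reached 4 for the acute phase (Control replicate 8) and 8 for apolipoproteins (Control replicate 2), and was as low as 1 for the acute phase and for the unfolded protein response (Control replicate 5, among others). C9, of the membrane attack complex, stood at -0.86 (SE 0.238), Saa4 at -0.43 (SE 0.106) and Apom, an apolipoprotein of HDL, at -0.54 (SE 0.147). Cytosolic ribosomal protein genes had 3 of 62 lower and 0 higher, but 19 lower without Control replicate 6 and 1 lower without Control replicate 7. Of 29 tested genes of the cell cycle 0 had an unadjusted p under 0.05. Cdkn1a, a cell cycle inhibitor, ran from 0.797 to 4.01 CPM on Low Amino Acid and from 0.229 to 7.07 CPM on Control.

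Markers of Kupffer cells and of T and NK cells stood higher on average, and so did those of several other cell types. Median log2 fold changes were 0.33 for neutrophil, 0.27 for erythroid, 0.20 for B and plasma cell and 0.17 for cholangiocyte markers. They were 0.17 for stellate cell and fibroblast and 0.12 for dendritic cell markers, and -0.07 for hepatocyte markers. All 16 markers of Kupffer cells and macrophages had a fold change above 0, with a median of 0.32, and 4 were higher at an unadjusted p under 0.05. Their summed level ran from 662 to 941 CPM on Low Amino Acid and from 365 to 889 CPM on Control. Cd68, a lysosomal protein of macrophages, stood at 0.55 (SE 0.196, edgeR adjusted p = 0.249), and Csf1r, their growth factor receptor, at 0.36 (SE 0.144). The 4 became 10 without Control replicate 2, 7 without Control replicate 3, and 2 without Low Amino Acid replicates 6 or 8 or Control replicates 1, 4, 6 or 7. In the authors' deposited table for 6-month females 0 of 17 markers of this list were higher at an unadjusted p under 0.05, with a median of 0.37. In 24-month females the fitted median of the list was -0.62. Macrophages also express Cd9, Cd44 and Ocstamp, and the part of macrophage markers in those results was not tested. Control replicate 6 had the highest Cd9 within Control, 20.9 CPM, and the lowest sum, 365 CPM. Control replicate 3 had the lowest Cd9, 9.80 CPM, with a sum of 860.5 CPM. These are only 2 libraries, picked for their Cd9. Between the groups, Cd9 and the sum both stood higher on Low Amino Acid, with a median sum of 766 CPM against 612 CPM on Control. How the sum went with Cd9, Cd44 or Ocstamp over all 16 was not tested.

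Of 6 tested markers of T and NK cells, of 14 listed, 4 were higher, with a median log2 fold change of 0.62; their summed level, 5.52 to 14.3 CPM on Low Amino Acid and 4.47 to 6.85 CPM on Control, was low. Cd3e, a chain of the T cell receptor complex, stood at 0.90 (SE 0.245, edgeR adjusted p = 0.162). In the authors' deposited table for 6-month females 0 of 9 T and NK cell markers were higher at an unadjusted p under 0.05, with a median of 0.52. In 24-month females the fitted median of these markers was -0.86. Markers of stellate cells and fibroblasts had 2 of 15 higher (1 without Low Amino Acid replicate 8), with Col1a1, a fibrillar collagen, at 0.78 (SE 0.206, edgeR adjusted p = 0.162), and summed levels of 864 to 1102 CPM on Low Amino Acid and 709 to 1311 CPM on Control. Of 5 tested neutrophil markers 1 was higher, Csf3r at 0.59 (SE 0.170). Liver endothelium had 0 of 15 markers at an unadjusted p under 0.05, with a median log2 fold change of 0.06. The median of 4 mesothelial markers was -0.02, and the single markers tested for adipocytes and pancreatic acinar cells stood at -0.58 and -0.34. Adipocyte markers summed to between 289 and 1347 CPM on Low Amino Acid and between 572 and 1798 CPM on Control, and the pancreatic genes Try4, Try5 and Pnlip were at 0 in all 16 libraries. In the least abundant bin 11.9% of genes were higher at an unadjusted p under 0.05, and in the most abundant bin 2.70%. The most abundant bin held 25% of Kupffer cell and macrophage markers, 26.7% of stellate cell and fibroblast markers and 33.3% of endothelial markers. It held 0% of T and NK cell markers. The share of markers in the least abundant bin was not computed.

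**Figure D4:**
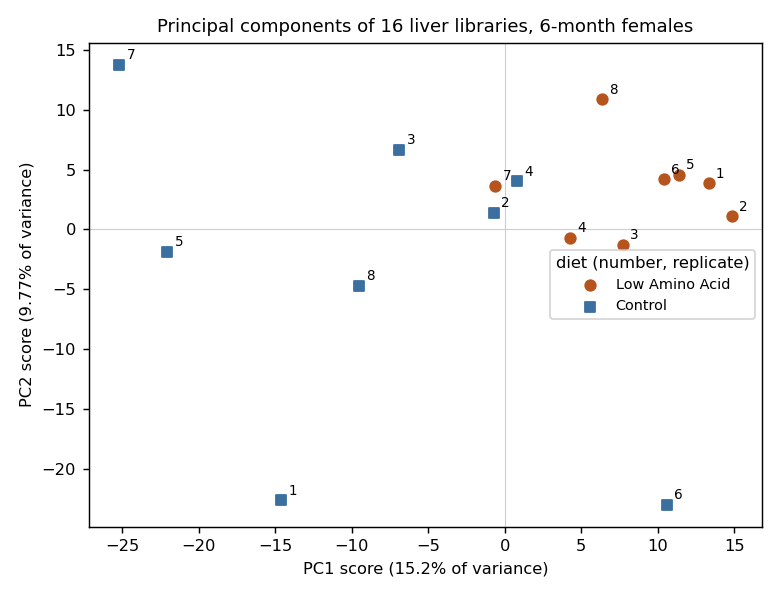
Scores of the 16 libraries on the first (horizontal) and second (vertical) principal components of the 2000 most variable genes (log2 CPM); circles are Low Amino Acid, squares Control, and numbers are replicates. The Low Amino Acid libraries lie together at the right, and the Control libraries spread along both axes, with replicate 6 at 10.6 on the horizontal axis.

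The libraries themselves differed by diet along the main axis of variation. Scores on the first principal component, with 15.2% of the variance, averaged 8.46 ± 5.09 on Low Amino Acid and -8.46 ± 12.05 on Control (SD, n = 8 each). That difference had a two-sided exact permutation p = 0.00295 over 12870 splits, or 0.00591 adjusted over the 2 components. Scores ran from -0.61 to 14.8 on Low Amino Acid (median 9.06) and from -25.2 to 10.6 on Control (median -8.23). The second component, with 9.77% of the variance, averaged 3.29 ± 3.82 and -3.29 ± 13.2 (exact permutation p = 0.227, n = 8 each). The largest loading at the Control end was that of Rps3a3, a copy of a ribosomal protein gene that may share its reads, and the next ones included Sult1e1, Nnmt, which methylates nicotinamide, A1bg, Mmd2, Slc10a2, a bile acid carrier, and Bdh2.

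Livers on the restricted diet also lay closer, on average, to the others of their group. The distance of a library from the mean of the others of its own group (root mean square difference of log2 CPM) averaged 0.358 ± 0.0345 on Low Amino Acid and 0.411 ± 0.0537 on Control (SD, n = 8 each). The two-sided permutation p was 0.0329. Distances within a group depend on each other and were not computed anew for each split, so this p is approximate. Per gene, the SD of log2 CPM over the 8 libraries had a median of 0.206 on Low Amino Acid and 0.259 on Control, and 69.0% of genes had the larger SD on Control. Control replicates 5, 6 and 7 had the largest distances, at 0.445, 0.451 and 0.505, and Control replicates 5 and 6 also had the lowest totals; the part of depth in this was not tested. Without Control replicate 7 the difference was -0.04 (permutation p = 0.0617, n = 8 and 7), and the p lay above 0.05 also without Control replicate 5 or Low Amino Acid replicates 2, 3, 4, 6 or 8.

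Did the same diet do the same in older females? The 24-month females, 7 on Low Amino Acid and 8 on Control, began the diet at 6 months of age, so that age, starting age and time on the diet cannot be told apart. Over 12623 genes in a fit of all 47 female libraries, 0 genes (0%) differed in their diet effect between 6 and 24 months at an adjusted p under 0.05 in edgeR's test. An unadjusted p under 0.05 was found for 1260 (9.98%), and DESeq2, voom and every other setting tried also called 0. In simulated data, where genes varied independently and no library stood apart, this test found 55.2% of genes whose effects differed by 1 log2 unit. The share in the real libraries may be lower. At 24 months 46 genes rose (0.364%) and 31 fell (0.246%). Across 11873 genes the diet effects at the 2 ages correlated at r = 0.043, and 56.7% of genes with an unadjusted p under 0.05 at 6 months had the same sign at 24 months, against 53.5% of all genes tested.

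Of the 5 genes past the threshold at 6 months, Igf2bp2 also rose at 24 months, with a log2 fold change of 0.92 (edgeR adjusted p = 0.0180), and its difference between the ages was 0.02 (unadjusted p = 0.939). Cd9 stood at 0.07, Cd44 at -0.42, Ocstamp at -0.19 and Mmd2 at -0.06 at 24 months. The authors' deposited table for 24-month females has Cd44 at -0.90 (adjusted p = 0.0969), Ocstamp at -0.53 (adjusted p = 0.226) and Mmd2 at -0.82 (adjusted p = 0.207), further below 0. For Ocstamp the effect at 6 months minus that at 24 months, 1.496, had an unadjusted p of 3.03e-04 and an adjusted p of 0.496. Slc34a2 rose at 24 months, at 2.80 (edgeR adjusted p = 0.0097), Atf4 fell, by 0.64 on the log2 scale (edgeR adjusted p = 0.0150), and Lepr stood at 1.20 without passing (edgeR adjusted p = 0.124). The authors' deposited table for 6-month males put 948 genes (5.34%) above and 1954 (11%) below 0 at an adjusted p under 0.05. In the authors' deposited table Igf2bp2 was at 1.01 (adjusted p = 0.00314), Cd9 at 0.88 (adjusted p = 0.00653), Lepr at 2.29 (adjusted p = 0.0093) and Bdh2 at -1.42 (adjusted p = 0.0133). Cd44, at 0.53, Mmd2, at 0.89, and Ocstamp, at -0.58, did not pass in the authors' deposited table of males. Whether any of these effects differ between the sexes was not tested.

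**Figure D5:**
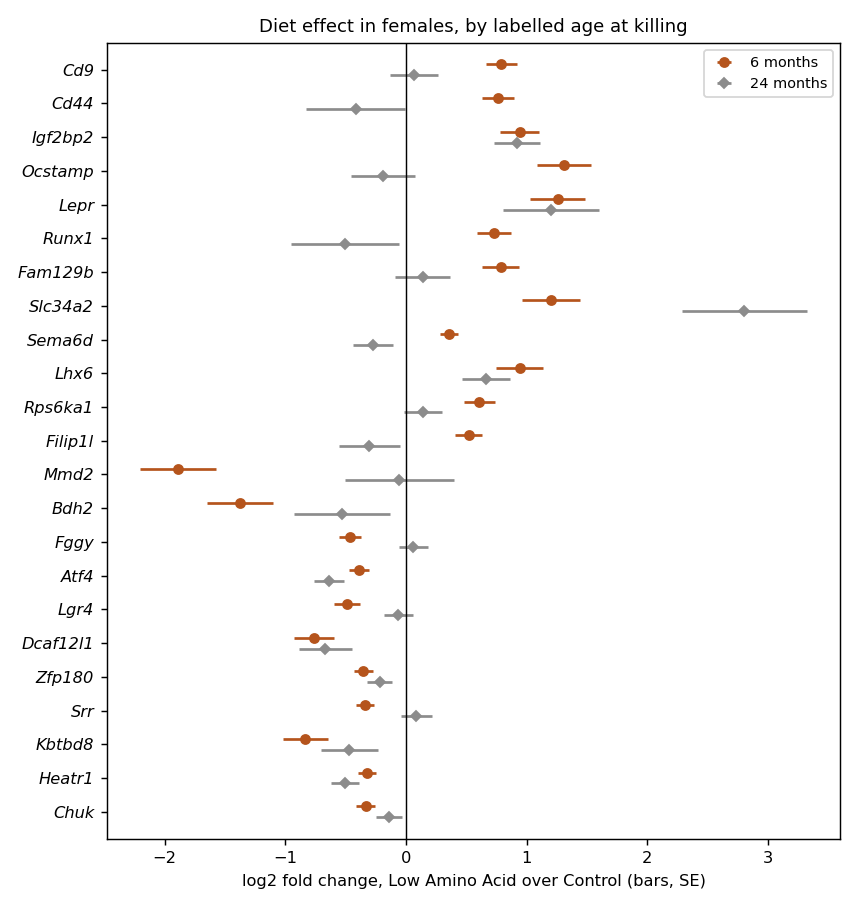
Fitted log2 fold change of Low Amino Acid over Control (horizontal axis, bars are SE) of 23 leading genes in 6-month (circles) and 24-month (diamonds) females. Igf2bp2 and Lepr lie at nearly the same value at both ages, Slc34a2 is higher at 24 months, and of the genes above 0 at 6 months Cd44, Ocstamp, Runx1, Sema6d and Filip1l lie below 0 at 24 months.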

How the data were processed

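RNA of 16 livers was analysed from the estimated counts per gene that the authors deposited (not normalized; 2 lanes merged, stranded polyadenylated RNA, per the labels' protocols). The submitters' processing notes name GRCm38.p5, edgeR, limma and R 3.4.3; no aligner or annotation is named. The gene table is misaligned: of 51912 lines, 17275 are filled under all columns, the other 34637 are shifted, and 45 columns of per-sample values were not used because they do not follow the gene names. Of the 17275 identifiers 17251 matched GENCODE M21.

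Counts were rounded, filtered with filterByExpr, scaled by TMM and fitted with edgeR 4.0.16 (glmQLFit, R 4.3.3) on the 16 libraries, with a mean per group and Benjamini-Hochberg adjustment over 11873 genes at 0.05. Levels are CPM on the TMM scale of the 47 female libraries, and fold changes are fitted log2 values. Alternatives used DESeq2 1.42.0 and limma 3.58.1 (voom). The age difference was an interaction in a fit of 47 libraries. Principal components were compared by exact permutation, and distances by the same splits of values that were not computed anew (Python 3.11.15, scipy 1.17.1). On simulated counts the diet test found 53.0% of genes changed by 0.5 log2 units, 97.0% of those changed by 1 and 98.4% of those changed by 2, with 7 of 11610 unchanged genes called. In that simulation genes varied independently and no library stood apart, so the shares found in the real libraries may be lower. The depth of 14.3 to 26.6 M counts limits genes under about 1 CPM.

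The authors' deposited tables, 1 per sex, give comparisons, from which log2 fold changes, p-values and adjusted p-values were read as given; positive means higher on the restricted diet, and its model is not stated. The members, gene lists and the choice of the 16-library fit were made with earlier results of these data known. Named genes are those past the threshold, those of lowest p up to 12 in a direction at 1 CPM or more, up to 4 of lowest p per list, 12 followed whatever their values, and those past the threshold in the authors' deposited table; names given to clones were left out, and a few genes that the rule names are not reported here. Promoters are RefSeq's, of GRCm38.p6, and exon overlaps are from GENCODE M21. Other diets, males' counts and genes outside the usable lines were not analysed here.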

Additional observations from a re-analysis of the deposited data

Results flagged for a closer look

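Values of the named genes, components and distances were looked at in 198 groups of 8 libraries for a highest or lowest library far from the others. Far meant a gap to its neighbour of more than 0.526 of the group's range. Normally distributed values give about 1 such group in 20, but CPM on the linear scale need not be normal, so that rate may not hold here. In these groups 17 such values were found. Most were 1 high Control library. Nupr1 stood at 138.6 CPM in Control replicate 2, where the next was 1.36 CPM, and Atf3, also induced by stress, at 17.4 CPM in the same library, where the next was 5.71 CPM. Nr4a1 and Jun, immediate early genes, stood at 51.2 and 43.3 CPM in Control replicate 3, with 4.37 and 12.2 CPM in the next libraries. A1bg, at 732 CPM, and Mbl2, a lectin of complement, at 662 CPM, were highest in Control replicate 5, and Mmd2, at 39.7 CPM, and Aldh1b1, at 110.1 CPM, in Control replicate 1. Slc10a2 stood at 11.9 CPM in Control replicate 3. Control replicate 6 had Lhx6 at 5.25 CPM, its highest, and Slc16a10 at 142 CPM, its lowest. Acsl1, which activates fatty acids, was lowest in Control replicate 2, at 1275 CPM. On Low Amino Acid the high values were Atf4 at 68.0 CPM (replicate 2), Ivd at 199.6 CPM (replicate 5), Jun at 11.9 CPM (replicate 7), and Saa4 at 283 CPM and Atg7, of autophagy, at 57.5 CPM (both replicate 3).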

How the results depend on the processing

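For the diet comparison, 5 genes passed, and RLE scaling, all 24 libraries at 6 months, a minimum of 1 CPM in 8 libraries, no filter, and voom with quality weights or with the tag number as a random effect gave 5, 7, 6, 6, 6 and 6. DESeq2 gave 126, and 0 passed with all 47 female libraries, with library totals alone or with libraries of a tag number summed. Leaving out 1 library gave 0 to 26, the 26 without Control replicate 6. Without the 2 Control libraries of lowest total, an alternative chosen after seeing the data, 3 passed, 1 of them among the 5. The cause of these differences was not tested, except that summing leaves 5 tag numbers a group. The age difference gave 0 in every setting. The difference in the first component lay between 15.4 and 20.1 and that in distance between -0.0703 and -0.0409 when 1 library was omitted; the second component, at 6.58, ran from -0.17 to 7.69. Log2 fold changes changed sign in 5 of 96 named genes, none past the threshold. Fgf21 was 0.0086 on library totals alone and lay between -0.20 and 0.12 when 1 library was omitted. Igf1 was -2.86e-04 with DESeq2 and -2.63e-04 with RLE scaling, and -0.0465 to 0.13 under such omissions. Cyp7a1 was 0.18 with tag numbers summed, 0.0466 on library totals, 0.0636 with voom and quality weights and 0.17 without the 2 Control libraries, and -0.21 to 0.11 under such omissions. Cdkn1a was 0.95 and 0.51 with voom (quality weights, tag number) and -0.36 to 0.42 under such omissions. Nupr1 was 0.79 with DESeq2 and -3.79 to 0.88 under such omissions. No paired analysis was possible because the labels give the groups no shared replicate numbers; libraries that share a tag number had a consensus correlation of 0.0299. The depth limits genes near 1 CPM, such as Asns and Arg2.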
